A study of Mus musculus with 6 samples.

Results

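The variable (V) segments of the T cell receptor alpha and beta chains were read out of a single-cell expression table of mouse T helper 9 (Th9) cultures. All gene columns whose names start with Trav (alpha) or Trbv (beta) were taken, 92 of the 17369 gene columns, of which 69 were Trav and 23 were Trbv. A cell was counted as having a segment when its deposited value was at least 1. By this measure 8725 of 27258 cells (32.0%) had at least 1 V segment, 5441 (20.0%) had a Trbv segment, 4257 (15.6%) had a Trav segment and 973 (3.57%) had both.

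The cells were naive CD4+ T cells from the spleen of wild-type or Cblb-/- mice, in which the gene of CBL-B, an E3 ligase that restrains T cell receptor signalling, is deleted. For 48 h all 6 cultures received human TGFβ at 3 ng/ml, IL-4 at 20 ng/ml and, at 20 µg/ml, anti-IFNγ, and all were enriched on CD4 beads before droplet sequencing with a chemistry that reads the 3′ end of each transcript. Libraries A, B and C (12755 cells) were wild type and libraries D, E and F (14503 cells) were Cblb-/-. The design text gives n = 3 mice per genotype, but neither the strain and age of the mice nor which library holds which animal is given in the sources used here, so the tests reflect the spread among libraries, which may in part be technical.

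Each developing T cell joins 1 V segment to short D or J segments, and the junction so made, together with the V segment, is inherited by all its progeny. Many clones share a V segment. Rearrangement of the beta locus is shut off once a productive chain is made, a rule called allelic exclusion, whereas the alpha locus can rearrange on both chromosomes. In the thymus, endogenous retroviral superantigens that vary between mouse strains delete T cells according to their beta V segment, and this is a known way in which strains come to differ in V segment use. The V segment lies at the 5′ end of the receptor transcript and the constant segment at the 3′ end, which the 3′ chemistry favours. Trac, Trbc1 and Trbc2, the constant segments, were detected in 98.3% to 99.2%, 84.2% to 89.0% and 99.85% to 99.98% of the cells of each library.

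On mm10 with the GENCODE M21 annotation, the Trbv segments lie on chromosome 6 and the Trav segments on chromosome 14. The table holds columns for all 22 functional Trbv genes and the pseudogene Trbv24, and for 64 of 108 functional Trav genes and 5 Trav pseudogenes. The other 44 functional Trav genes were not analysed here, and 39 of them carry a d or n in their name, which marks copies within the duplicated part of the alpha locus. Counts of single Trav segments are uncertain for this reason. The coding sequence of 57 of the 66 Trav segments that could be aligned over at least 200 bases was at least 95% identical to that of another Trav gene (median 97.4%). No Trbv segment reached that limit (median 73.7%, highest 90.6%, 15 segments aligned).

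The sequences below are the last 120 coding bases of segments on which the results turn, from mm10 at the GENCODE M21 coordinates, 5′ to 3′ on the coding strand. Trbv12-1 (chr6:41113948-41114067, plus strand) and Trbv12-2 (chr6:41119245-41119364, plus strand) are close relatives with 88.2% identical coding sequences, 44 mismatches in 372 bases, and capitals mark the 9 bases that differ between them in this stretch.
Trbv12-1: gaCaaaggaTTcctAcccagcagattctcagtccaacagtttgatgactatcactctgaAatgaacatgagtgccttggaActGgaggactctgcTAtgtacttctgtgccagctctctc
Trbv12-2: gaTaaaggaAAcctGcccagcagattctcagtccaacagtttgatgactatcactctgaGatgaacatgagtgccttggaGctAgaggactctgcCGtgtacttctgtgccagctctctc

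Trbv26 (chr6:41227874-41227993, plus strand), shown as the segment with the lowest knockout-to-wild-type ratio among Trbv, and Trbv2 (chr6:41047876-41047995, plus strand), the most frequent one, have the last in-frame cysteine codon in capitals. That cysteine opens the junction with the D and J segments, the third complementarity-determining region.
Trbv26: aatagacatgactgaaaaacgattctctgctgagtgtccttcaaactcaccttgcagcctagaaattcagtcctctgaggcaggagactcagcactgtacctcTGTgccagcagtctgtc
Trbv2: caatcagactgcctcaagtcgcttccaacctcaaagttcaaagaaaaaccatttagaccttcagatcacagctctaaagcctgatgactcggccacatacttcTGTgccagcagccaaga

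Trav6-7-dv9 (chr14:53710300-53710419, plus strand), the most frequent Trav segment, is set beside Trav6n-7 (chr14:53319165-53319284, plus strand), a copy with no column among those analysed here, to show how little separates the copies: capitals mark the 2 bases that differ in this stretch, and their coding sequences are 98.3% identical where they align.
Trav6-7-dv9: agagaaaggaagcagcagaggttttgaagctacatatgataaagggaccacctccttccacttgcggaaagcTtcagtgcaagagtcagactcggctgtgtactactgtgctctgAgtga
Trav6n-7: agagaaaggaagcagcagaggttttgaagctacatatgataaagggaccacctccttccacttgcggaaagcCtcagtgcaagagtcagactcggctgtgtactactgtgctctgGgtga

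Libraries held 3423 to 5666 cells with a median of 35570 to 39630 raw UMIs (unique molecular identifiers, 1 per captured RNA molecule) per cell. Cblb was at 31.0 to 32.6 ppm (parts per 1000000 of a library's summed values) in wild-type and 15.0 to 18.4 ppm in Cblb-/- libraries. The position of the deleted part is not given in the sources used here, so residual 3′ reads check little. The T cell label held: Cd3e was detected in 98.1% to 99.5% and Cd4 in 91.9% to 95.4% of the cells of each library, and Cd8a in at most 0.517%, whereas Cd8b1, the other CD8 chain, was detected in 15.1% to 18.0% of wild-type and 23.5% to 26.3% of Cblb-/- cells. Summed levels of marker lists of other cells did not overlap between genotypes for B cells (2.91 to 3.51 ppm in wild type, 5.23 to 9.04 ppm in Cblb-/-, most of it Cd79b), CD8 T cells (5.68 to 7.20 and 10.2 to 11.1 ppm, most of it Cd8b1), NK cells (0.268 to 0.358 and 0.685 to 1.29 ppm, most of it Eomes), dendritic cells (0.592 to 0.727 and 1.52 to 1.59 ppm, most of it Zbtb46) and myeloid cells (1.29 to 1.31 and 1.37 to 1.59 ppm). They overlapped for mast cells or basophils (1.03 to 4.53 and 1.01 to 3.77 ppm) and gamma-delta T cells (1.51 to 2.40 and 1.01 to 1.73 ppm). The part of such cells in the results below was not tested. Of these lists, Cd79b was detected in 6.66% to 7.95% of wild-type and 11.4% to 16.2% of Cblb-/- cells, Eomes in 0.558% to 0.791% and 1.75% to 3.04%, and Zbtb46 in 2.12% to 2.54% and 4.85% to 5.38%. Cd79a, also on the B cell list, went the other way, with 1.318% to 1.67% of wild-type and 0.868% to 1.315% of Cblb-/- cells. Most of the myeloid sum was Cd68, which overlapped between genotypes, with 4.185% to 4.394% of wild-type and 4.059% to 5.259% of Cblb-/- cells. Adgre1, also on the myeloid list, was higher in Cblb-/- without overlap (0.1098% to 0.1794% and 0.2045% to 0.4412% of cells). Csf1r and Itgam overlapped, and the mean of Itgam was lower in Cblb-/- (0.0311 ppm in wild type, 0.0124 ppm in Cblb-/-). Ms4a1, Klrb1c and Itgax stayed at or below 0.229% of cells in each library, Flt3 at or below 0.425% and Pax5 at or below 0.409%. Hdc, a mast cell or basophil marker, was detected in 2.57% to 3.00% of wild-type and 1.11% to 1.81% of Cblb-/- cells. Trdc, a gamma-delta marker, was detected in 2.46% to 3.325% and 1.37% to 2.11%. The other members of both lists with a column overlapped. Cell barcode sequences shared by 2 or more libraries numbered 76 (152 cells), and without these cells the share with a Trbv segment was 20.0%.

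The 23 Trbv segments differed widely in use. Trbv2 was found in 4.05% of cells on average over the 6 libraries, Trbv12-2 in 3.04%, Trbv3 in 2.03%, Trbv31 in 1.91%, Trbv13-2 in 1.67%, Trbv19 in 1.56% and Trbv1 in 1.52%. Trbv13-1 (0.899%), Trbv15 (0.811%), Trbv20 (0.739%), Trbv16 (0.727%) and Trbv13-3 (0.551%) completed the 12 most frequent. At the low end, Trbv23 (0.132%), the pseudogene Trbv24 (0.0831%), Trbv21 (0.0491%) and Trbv30 (0.0246%, 7 cells) followed in falling order. Every Trbv segment was present in all 6 libraries except Trbv30, which was found in 4. Neighbours in this order such as Trbv19 and Trbv1 overlapped from library to library, since Trbv19 ranged from 1.28% to 1.82% and Trbv1 from 1.32% to 1.74%. Trbv2, in contrast, lay above every other segment in 5 of the 6 libraries. In library D, Trbv12-2 (3.71%) exceeded Trbv2 (3.18%).

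**Figure D1:**
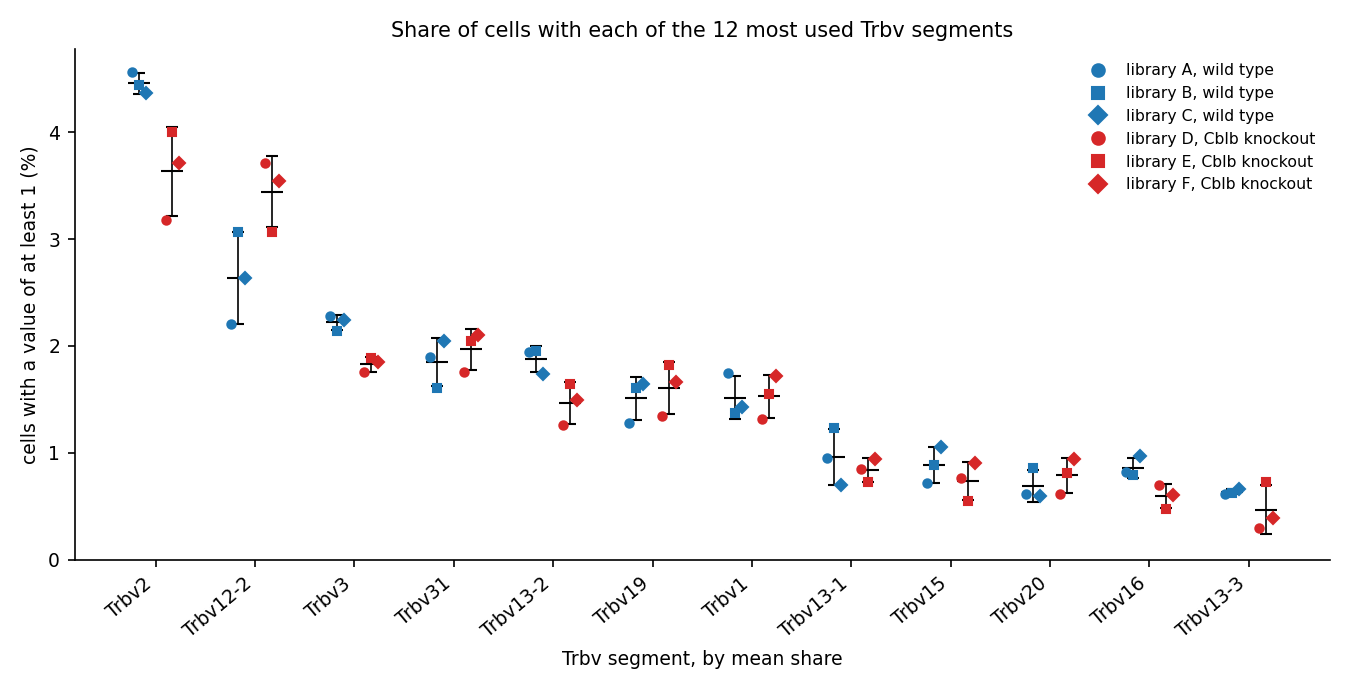
The share of cells with each of the 12 most frequent Trbv segments, in percent, is plotted for each library, with the genotype mean (long tick) and SD (n = 3) in black. Trbv2 and Trbv3 lie lower in all 3 Cblb-/- libraries than in all 3 wild-type libraries, and Trbv12-2 lies higher, with library E (3.071%) just above library B (3.069%).

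Among the Trav columns analysed here the shape was different, with 1 dominant segment and a long tail of less frequent ones. These shares are uncertain, since Trav6-7-dv9 and most other Trav segments have nearly identical copies. How reads were divided among copies was not tested. Trav6-7-dv9 was found in 2.98% of cells, and the next, Trav4-4-dv10, in 0.782%. Trav3-3 (0.768%), Trav13-1 (0.701%), Trav14d-3-dv8 (0.564%), Trav14-2 (0.541%), Trav14-3 (0.468%), Trav14n-3 (0.449%), Trav9-4 (0.418%), Trav7-5 (0.401%), Trav16n (0.395%) and Trav16 (0.392%) came after it. Of the 69 Trav segments 25 had a mean share under 0.1%, and the rarest, such as Trav9d-4, were seen in 6 cells. The 26 members named as d or n copies had a median share of 0.0861%, and the other 43 had a median of 0.198%. By family, Trav6 (9 segments, 980 cells) and Trav14 (5 segments, 594 cells) led.

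A pair of segments are known markers of innate-like T cells: Trav11 forms the invariant receptor of NKT cells and Trav1 that of MAIT cells. Trav11 was not analysed here. Its copy Trav11n, annotated as a pseudogene and 97.7% identical to it in sequence, was found in 16 cells. The Trav11n shares were 0.0513%, 0.0465% and 0.0220% in wild type (libraries A, B and C) and 0.0584%, 0.0530% and 0.111% in Cblb-/- (D, E and F). Trav11n was added after its values were seen. Trav1 was found in 15 cells, in 0.103%, 0.0465% and 0.0879% of wild-type cells (libraries A, B and C) and 0.0292%, 0.0353% and 0.0369% of Cblb-/- cells (D, E and F). These counts, 1 to 4 cells per library for Trav1 and 1 to 6 for Trav11n, are too low to read a difference from.

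**Figure D2:**
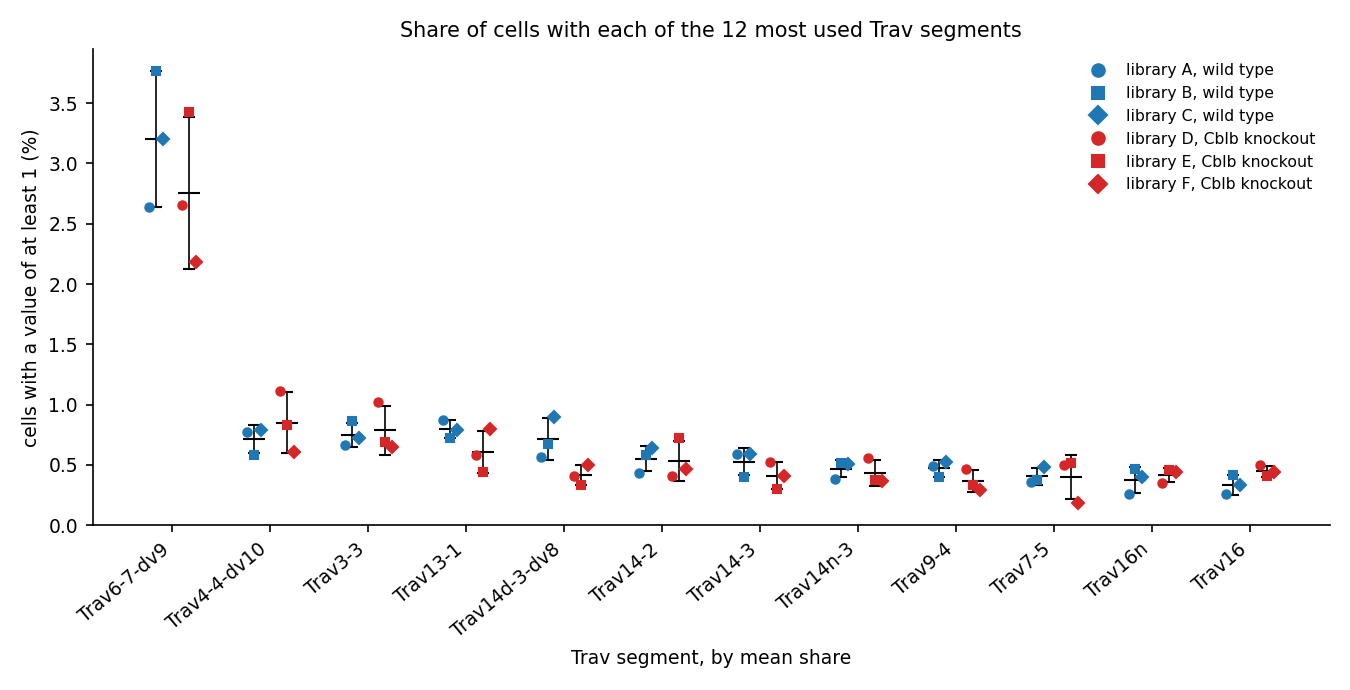
The share of cells with each of the 12 most frequent Trav segments, in percent, is plotted for each library, with the genotype mean (long tick) and SD (n = 3) in black. Trav6-7-dv9 stands apart from all others and spreads from 2.18% in library F to 3.77% in library B, with both genotypes mixed.

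Where a segment was detected, the value was mostly 1. Of the 5868 cell-segment pairs for Trbv 89.3% had a value of 1 and 4 had a value of 5 or more. For Trav 81.1% of 4618 pairs had a value of 1 and 84 had 5 or more, 18 of them Trav6-7-dv9, whose highest value in a cell was 21. The share of positive cells rose with the raw depth of the cell. When cells were split into 5 equal groups by raw UMI total, from the shallowest to the deepest group cells with a Trbv segment went from 12.4% to 30.2% and cells with a Trav segment from 11.6% to 22.7%. With Trac found in nearly all cells, a cell without a detected V segment is not shown to lack a receptor, and the shares above depend on depth as well as on use.

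The spread between libraries of a genotype was about as large as counting error gives. For segments with at least 30 cells, the median ratio of the variance between libraries to the variance that binomial counting gives was 1.02 for the 20 Trbv and 1.16 for the 42 Trav segments. The same ratio was 1.60 over all 4609 genes with at least 30 cells and a mean share under 5%. A ratio above 2 was found for 12 of the 62 segments (19.4%) and for 40.6% of those genes. Trav6-7-dv9 had the highest ratio of all segments, 5.41, from shares of 2.64%, 3.77% and 3.21% in wild-type libraries A, B and C and 2.66%, 3.42% and 2.18% in Cblb-/- libraries D, E and F.

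The first comparison between genotypes asked how many cells had any segment. A Trbv segment was detected in 19.9%, 21.0% and 21.1% of cells of wild-type libraries A, B and C and in 18.0%, 19.5% and 19.9% of cells of Cblb-/- libraries D, E and F. All 3 Cblb-/- values lay below all 3 wild-type values, by a narrow margin between F (19.91%) and A (19.94%). The means were 20.7% ± 0.658 and 19.1% ± 1.02 (SD, n = 3 each), and the difference of -1.58 percentage points had p = 0.1 in an exact two-sided permutation test, the smallest p that 3 against 3 allows. Among cells within 20% of the median raw depth the difference was -2.50 points, and without library D it was -0.999 points. For Trav the shares were 15.7%, 15.5% and 17.03% in wild type and 16.1%, 15.1% and 14.8% in Cblb-/- libraries. These overlapped (16.1% ± 0.852 and 15.3% ± 0.662, SD, n = 3 each; difference -0.731 points, exact permutation p = 0.4), and with 1 library left out the difference ranged from -1.11 (without D) to -0.242 points (without C).

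Repertoire breadth was measured as the effective number of segments, the exponential of the Shannon entropy of segment use among cells with exactly 1 segment of the locus. It equals the number of segments that would give the same entropy if all were used equally. For Trbv it was 13.0, 13.6 and 14.0 in libraries A, B and C and 13.1, 12.4 and 12.9 in D, E and F (13.5 ± 0.495 and 12.8 ± 0.355, SD, n = 3 each; exact permutation p = 0.2). For Trav it was 40.9, 31.8 and 38.8 in wild type and 36.8, 32.7 and 43.8 in Cblb-/- (37.2 ± 4.77 and 37.7 ± 5.63, SD, n = 3 each; exact permutation p = 0.9). The Trav values were lowest in libraries B and E, the 2 libraries with the highest share of Trav6-7-dv9. The 2 genotypes overlapped in breadth at both loci.

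The genotype difference of each gene was then tested across the whole table with limma on log2(ppm + 1), for the 10488 genes whose mean reached 1 ppm. Only Trbv2 and Trav6-7-dv9 reached this level, and 0 of these 2 members were called at an adjusted p under 0.05, beside 24.1% of all genes tested. Trbv2 had a log2 difference, Cblb-/- minus wild type, of -0.22 (SE 0.07, adjusted p = 0.0669, limma). An unadjusted p under 0.05 was found for 1 of the 2 members, beside 39% of all genes tested. Trav6-7-dv9 had a difference of -0.07 (SE 0.11, adjusted p = 0.691, limma). Without the filter all 92 members were tested and 4 were called, all lower in Cblb-/-, beside 15.7% of all 17369 genes (8.25% higher, 7.44% lower): Trbv16, Trbv26, Trbv23 and Trbv12-1, with adjusted p of 0.0179, 0.0275, 0.0416 and 0.0492.

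Since most members are rare, the share of cells with each gene was also tested with limma, as log odds to base 2, for all 14142 genes with at least 30 cells. This fit was chosen after the data were seen. It tested 62 members, 20 Trbv and 42 Trav, and called 2, beside 19.1% of all genes (7.21% in the lower direction). Both were Trbv segments and both were lower in Cblb-/-; these and the other segments named below from outside the 12 most frequent were chosen after their values were seen. The median log odds difference was -0.14 over the 62 members and 0.05 over all genes tested, and 0 of the 42 Trav segments were called. An unadjusted p under 0.05 was found for 5 of the 62 members, beside 33.3% of all genes tested.

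Trbv26, known as Vβ3 in the older nomenclature, was detected in 0.308%, 0.628% and 0.417% of cells of wild-type libraries A, B and C (12, 27 and 19 cells) and in 0.117%, 0.124% and 0.129% of cells of Cblb-/- libraries D, E and F (4, 7 and 7 cells). The Cblb-/- libraries lay close together and all below the lowest wild-type library. The mean was 3.66-fold higher in wild type (0.451% ± 0.163 against 0.123% ± 0.00620, SD, n = 3 each), a log odds difference of -1.73 (SE 0.37, adjusted p = 0.00916, limma). Without library B the adjusted p was 0.0618. Among cells with exactly 1 Trbv segment, Trbv26 made up 1.40%, 2.99% and 2.13% in wild type and 0.702%, 0.680% and 0.608% in Cblb-/- libraries.

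Trbv12-1, or Vβ5.2, was detected in 0.333%, 0.349% and 0.615% of wild-type cells (13, 15 and 28 cells) and 0.175%, 0.141% and 0.129% of Cblb-/- cells (6, 8 and 7 cells). The groups did not overlap, and library C was the highest of the wild-type libraries. The log odds difference was -1.44 (SE 0.37, adjusted p = 0.0216, limma). This call was lost without library B (adjusted p = 0.0546), C (0.113) or F (0.0522), and among cells near the median raw depth (difference -0.94, adjusted p = 0.356).

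Trbv12-2, or Vβ5.1, the close relative shown above, had a difference of the opposite sign. It was detected in 2.20%, 3.069% and 2.64% of wild-type cells and 3.71%, 3.071% and 3.55% of Cblb-/- cells. The Cblb-/- libraries were higher by the smallest of margins between E and B, with means of 2.64% ± 0.433 and 3.44% ± 0.332 (SD, n = 3 each). The log odds difference was 0.40 (SE 0.17, adjusted p = 0.13, limma). Among cells with exactly 1 Trbv segment the gap was wider, with Trbv12-2 making up 9.37%, 12.3% and 11.3% in wild type and 18.6%, 14.5% and 16.3% in Cblb-/-. That comparison had an exact permutation p of 0.1 (n = 3 each) and an adjusted p of 0.767 over the 92 segments.

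Trbv16, or Vβ11, was found in 0.820%, 0.791% and 0.967% of wild-type cells and 0.701%, 0.477% and 0.610% of Cblb-/- cells. Its shares did not overlap, but its log odds difference of -0.54 (SE 0.25, adjusted p = 0.158, limma) was not called, whereas the unfiltered ppm fit had called it. Trbv23, also called by the unfiltered ppm fit, was likewise not called by the log odds fit. Trbv2 stood at 4.56%, 4.44% and 4.37% in wild type and 3.18%, 4.01% and 3.71% in Cblb-/- (log odds difference -0.31, SE 0.14, adjusted p = 0.158, limma). Trbv3, which starts 0.95 kb downstream of the start of Trbv2, stood at 2.28%, 2.14% and 2.24% against 1.75%, 1.89% and 1.85% (log odds difference -0.28, SE 0.16, adjusted p = 0.245, limma).

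**Figure D3:**
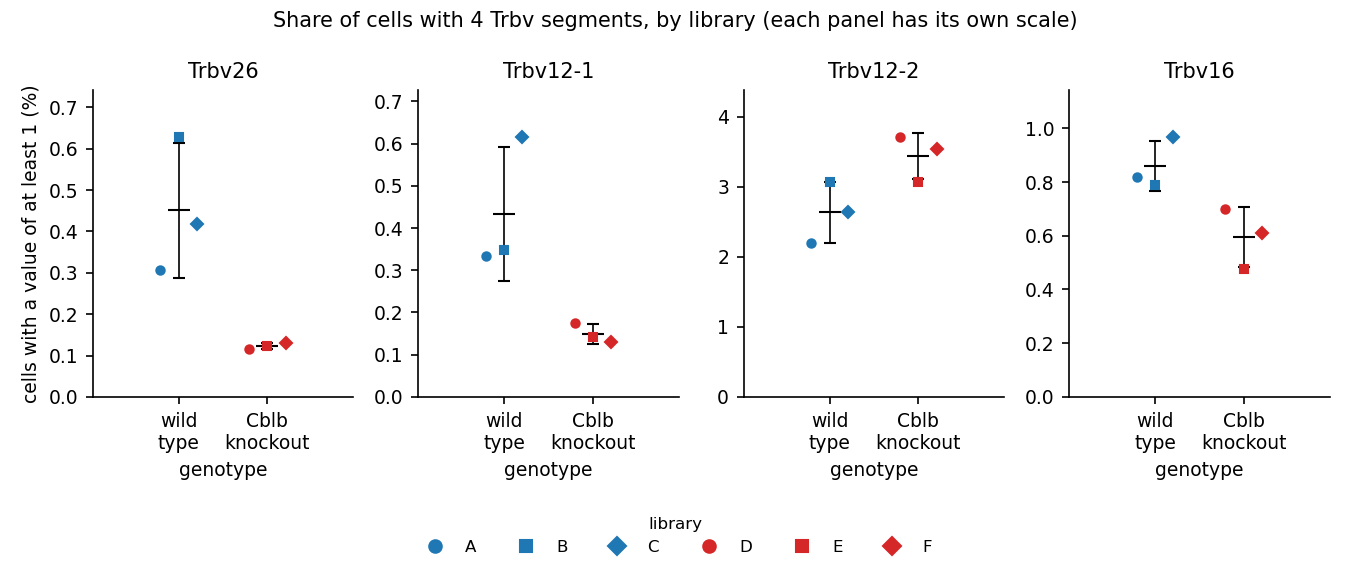
The share of cells with Trbv26, Trbv12-1, Trbv12-2 and Trbv16, in percent, is plotted for each library by genotype, with the mean (long tick) and SD (n = 3) in black and a separate scale for each panel. Trbv26 and Trbv12-1 sit between 0.117% and 0.175% in all Cblb-/- libraries and at or above 0.308% in all wild-type libraries.

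Across the 62 members with at least 30 cells, 12 had shares that did not overlap between genotypes, 2 higher and 10 lower in Cblb-/-, beside 38.1% of all 14142 genes (21.6% higher, 16.5% lower). The 10 lower ones included 8 of 20 Trbv segments: Trbv2, Trbv3, Trbv4, Trbv12-1, Trbv13-2, Trbv16, Trbv23 and Trbv26. Trav14d-3-dv8 and Trav7-3 were the lower Trav segments, and Trbv12-2 and Trav19 the higher ones. Use among single-segment cells gave 12 segments without overlap out of 92, 5 higher and 7 lower in Cblb-/-, and the smallest adjusted p over the 92 was 0.767 (exact permutation test, 3 against 3). With 3 against 3, a fraction of up to 0.1 of segments would lack overlap if genotype made no difference. This count is description only, and no share over all genes was made for this measure. Among the named Trav segments, Trav14d-3-dv8 stood at 0.564%, 0.674% and 0.901% in wild type and 0.409%, 0.335% and 0.499% in Cblb-/- libraries (log odds difference -0.77, SE 0.29, adjusted p = 0.0891, limma). Its counts are uncertain, since its coding sequence is 97.2% identical to that of Trav14-3. The shares of Trav14-3 and Trav14n-3 overlapped between genotypes.

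Taken over all segments of a locus at once, the libraries were compared by the Bray-Curtis distance of segment use, which is 0 for identical use and 1 for no shared segment. Trbv use differed by 0.106 to 0.142 between libraries of different genotype, by 0.0923 to 0.0990 within wild type and by 0.0606 to 0.105 within Cblb-/-. All 9 pairs across genotypes were thus farther apart than all 6 pairs within a genotype. For Trav, distances across genotypes (0.150 to 0.233) covered those within wild type (0.151 to 0.211) and within Cblb-/- (0.207 to 0.215). Pairs of libraries share libraries, so no test was made.

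The deposited clusters, numbered 0 to 6, differed in the share of cells with a segment. Cluster 4 was highest for both loci, with Trbv in 24.4% and Trav in 18.1% of its 1258 cells, and its median raw depth of 41710 UMIs was also the highest. Cluster 5 was lowest for Trbv among clusters 0 to 5 (17.8% of 1209 cells, median depth 38260). Cluster 2, at 41010 UMIs nearly as deep as cluster 4, had Trbv in 18.3% and Trav in 13.7% of 2716 cells. In cluster 6, whose 24 cells include 14 with at least 3 mast cell or basophil markers, 2 cells had a Trbv segment (8.33%, 95% Wilson interval 2.32% to 25.9%) and 1 had a Trav segment, at a median depth of 24760 UMIs. Since 79.2% of the cells in cluster 6 also had Cd3e, this cluster is a poor measure of background from free RNA, and at 24 cells it sets no useful limit.

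Within clusters, the share of cells with a Trbv segment was lower in all Cblb-/- libraries than in all wild-type libraries in clusters 0, 1, 4 and 5. In cluster 0 the means were 22.8% ± 0.400 and 20.3% ± 0.536, and in cluster 1 they were 19.1% ± 0.756 and 16.9% ± 1.22 (SD, n = 3 each). Cluster 4 had the widest gap, with 29.4% ± 1.64 and 21.5% ± 4.50 (SD, n = 3 each). Clusters 2 and 3 overlapped. For Trav all 6 clusters overlapped. The exact permutation p was 0.1 for each of the 4 clusters and the adjusted p 0.3 over 6 clusters and 2 loci (n = 3 each).

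**Figure D4:**
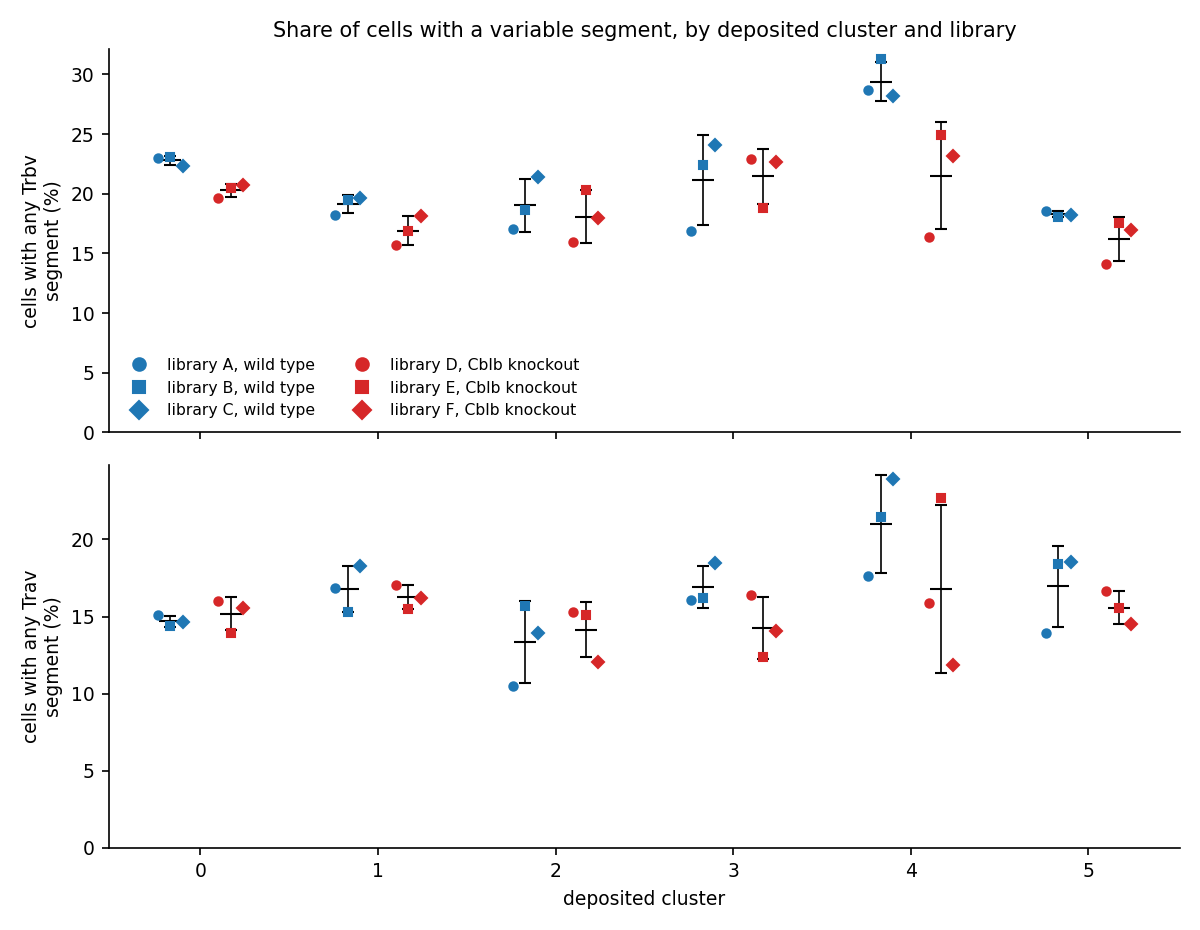
The share of cells with any Trbv segment (top) and any Trav segment (bottom), in percent, is plotted for deposited clusters 0 to 5 and each library, with the genotype mean (long tick) and SD (n = 3) in black. Cluster 4 is highest in wild type for both loci, and Trbv lies lower in Cblb-/- libraries in clusters 0, 1, 4 and 5.

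Some segments kept the direction of their genotype difference in the 2 large clusters and others did not. In cluster 0, Trbv26 was found in 24 of 4043 wild-type and 13 of 7442 Cblb-/- cells, and in cluster 1 in 23 of 5694 wild-type and 0 of 3370 Cblb-/- cells, which, with the libraries pooled and counting error only, allows a share of cells with a detected value of up to 0.0890%. Trbv12-1 was found in 22 and 15 cells of cluster 0 and in 21 and 1 cells of cluster 1 (wild type and Cblb-/-). Both segments were lower without overlap in clusters 0 and 1. Trbv2, Trbv3 and Trbv13-2 were also lower in all Cblb-/- libraries in clusters 0 and 1. Trbv12-2 was higher in all Cblb-/- libraries only in cluster 0 among clusters 0 to 5, with 2.91% ± 0.202 in wild type and 3.74% ± 0.326 in Cblb-/- (SD, n = 3 each), and the difference between clusters was not tested. The mean share of Trbv31 was 2.39% in wild type and 2.12% in Cblb-/- in cluster 0, and 1.58% and 1.98% in cluster 1. For Trav6-7-dv9 the signs of these differences were the other way round, and the libraries overlapped for both segments in both clusters. The Trav6-7-dv9 share was 2.22% ± 0.193 in cluster 0 and 3.85% ± 0.778 in cluster 1 of wild-type libraries and 2.43% ± 0.125 and 3.21% ± 0.619 in Cblb-/- libraries (SD, n = 3 each).

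Cells with more than 1 segment of a locus can come, among other sources, from incomplete allelic exclusion, from doublets or from free RNA, and the sources cannot be told apart here. Of cells with a Trbv segment, 394 had 2 and 16 had 3 or 4, and of cells with a Trav segment 317 had 2 and 21 had 3 or 4. The share with 2 or more Trbv segments was 7.60% ± 0.465 in wild type and 7.49% ± 0.882 in Cblb-/- (SD, n = 3 each; exact permutation p = 0.9). For Trav it was 8.67%, 10.1% and 8.39% in libraries A, B and C and 7.64%, 7.61% and 5.74% in D, E and F (9.05% ± 0.903 and 6.99% ± 1.09, SD, n = 3 each). All Cblb-/- values for Trav lay below all wild-type values (exact permutation p = 0.1). The Trav share exceeded the Trbv share in 5 of 6 libraries, by 0.478 ± 1.75 points on average (SD, n = 6; exact sign-flip permutation p = 0.531). This mean was 0.0611 points without library B, 1.115 points without library F and 1.60 points with a value of at least 2 in place of 1.

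To take depth into account, cells with both members of a pair were counted and set beside the number that the product of the 2 segments' shares gives within each library and each of the 5 depth groups. Pairs of different Trbv segments numbered 445 beside a product of 634, a ratio of 0.702 that ranged from 0.619 to 0.763 over the 6 libraries. Pairs of different Trav segments numbered 386 beside 402 (ratio 0.960, from 0.731 to 1.28). Cells with both a Trbv and a Trav segment numbered 973 beside 913 (ratio 1.07). The Trbv count was below the product in all 6 libraries, whereas the Trav count was above it in libraries A and B and below it in the other 4. No test was made of these ratios.

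Some Trbv pairs went the other way, among them several with Trbv12-2. Trbv12-2 and Trbv13-2, which starts 2.54 kb downstream of it, were found together in 46 cells beside a product of 14.8, and the count exceeded the product in all 6 libraries (3, 12 and 5 cells in A, B and C, and 9, 10 and 7 in D, E and F). Trbv12-2 was also found with Trbv13-3 in 12 cells (product 4.93) and with Trbv14 in 8 cells (product 2.20), both farther downstream within 20 kb. Over the 14 segments downstream of Trbv12-2 on the same strand the count was 104 beside 67.4, or 58 beside 52.6 without Trbv13-2, and over the 7 segments upstream it was 39 beside 81.5. Trbv31, which lies downstream in the opposite orientation, was found with it in 13 cells beside 17.8. Trbv2 and Trbv3, with 294 bases between them, were found together in 32 cells beside 24.2. At low counts, Trbv15 with Trbv20 (5 cells, product 1.84) and Trbv2 with Trbv5 (5 cells, product 2.11) also exceeded the product. So did the Trav pairs of Trav3-3 with Trav4-4-dv10 (7 cells, product 1.68) and with Trav9-4 (5 cells, product 0.851). Others lay below it, such as Trbv2 with Trbv31 (14 cells, product 24.2). These pairs were chosen after their values were seen.

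**Figure D5:**
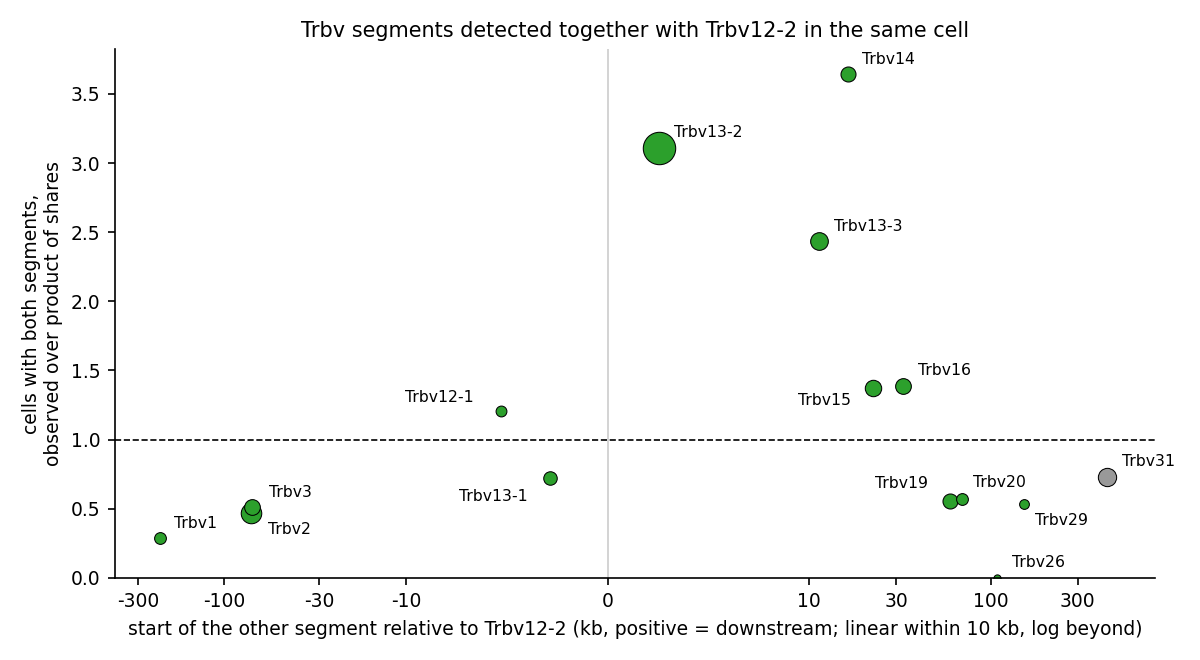
The number of cells with both Trbv12-2 and another Trbv segment, over the product of their shares, is plotted against the distance between their starts in kb, with positive values downstream. Symbol area grows with the number of cells, segments with a product under 2 are left out, and grey marks Trbv31 on the opposite strand. Trbv13-2, Trbv13-3 and Trbv14 lie above 2, and all segments beyond 50 kb on either side lie below 1.

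Share was also set beside features of the annotated transcript. Across genes, which are not independent, Spearman's rho between mean share and annotated transcript length was 0.45 over 22 functional Trbv and 0.20 over 64 functional Trav segments. The longest run of A in the coding part of the transcript, at which an oligo-dT primer could start, gave 0.09 and 0.16. The untranslated part was not searched.

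The other genes of the receptor give the setting of these values, from the ppm fit in which 24.1% of genes were called (11.9% higher, 12.2% lower). The median log2 difference over all genes tested was -0.00, over the 4 constant segments with a column -0.20 and over the 4 CD3 subunits -0.02. Of the 4 constant segments 1 was lower in Cblb-/- and 0 higher. Trac, the alpha constant segment, stood at 226, 220 and 227 ppm in libraries A, B and C and 205, 176 and 189 ppm in D, E and F (log2 difference -0.24, SE 0.06, adjusted p = 0.0194, limma). That call was lost without library A, B or C (adjusted p = 0.0609 to 0.08) and in the log odds fit of cell shares (-0.57, adjusted p = 0.158, limma). Trbc1 (0.10, adjusted p = 0.0709) and Trbc2 (-0.15, adjusted p = 0.0709), the 2 alternative beta constant segments, and Trdc, the delta constant segment (-0.40, adjusted p = 0.0524), were not called by limma on log2 ppm, but the log odds fit called Trdc lower (-0.82, adjusted p = 0.0199, limma). The 2 beta constant segments had differences of opposite sign.

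Of the 4 CD3 subunits, which carry the signal of the receptor into the cell, Cd3e was lower (176, 178 and 179 ppm in wild type; 139, 154 and 141 ppm in Cblb-/-; log2 difference -0.30, SE 0.05, adjusted p = 0.00493, limma). Cd3d, Cd3g and Cd247 were not called. Of the co-receptors, Cd4 was lower (log2 difference -0.20, SE 0.05, adjusted p = 0.022, limma) and Cd8b1, a CD8 chain, was higher (5.61, 7.11 and 6.58 ppm against 10.7, 10.0 and 10.9 ppm; log2 difference 0.64, SE 0.08, adjusted p = 0.00262, limma). The Cd4 call was lost without library A, B, C or F (adjusted p = 0.0527 to 0.0938). Ptcra, the partner of the beta chain before the alpha chain is made, was detected in 2.85% to 4.23% of cells and not called (log2 difference 0.19, adjusted p = 0.108, limma; -0.01 among cells near the median raw depth). The 4 gamma and delta V segments with a column were found in at most 0.185% of cells of a library. Columns for joining and diversity segments were not analysed here.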

How the data were processed

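Gene expression was measured in single cells of 3 wild-type and 3 Cblb-/- libraries. Per the submitters' processing notes, Cell Ranger 3.0.2, Seurat 3.0.0 and mm10 were used. The deposited score values are depth-corrected counts per gene and cell (sctransform) per the file headers; the deposited table also gives each cell's raw UMI count, its percent of mitochondrial UMIs and its cluster number. Corrected values can lose or gain single molecules, which matters for segments whose value is mostly 1. Doublets were not treated. Depth is 149381789 to 229387950 raw UMIs per library; intervals cover counting error only.

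Values were summed per library and scaled to ppm. limma 3.58.1 (R 4.3.3, trended prior, two-sided, Benjamini-Hochberg at 0.05) was run on log2(ppm + 1) where the mean reached 1 ppm, which understates changes of low genes, and on log odds of cell shares (0.5 added) for genes with at least 30 cells. Both fits were also run on simulated data whose spread between libraries was taken from highly expressed genes. Those runs were not made for rare segments in particular. Single values were compared by exact permutation tests (scipy 1.17.1). Segments were placed with GENCODE M21 (mm10) and aligned with blastn 2.17.0. Named were the 12 most frequent Trbv and Trav segments, called members, Trav1, Trac, Trbc1, Trbc2 and called receptor genes; others are said to be chosen later. The members and lists were chosen with earlier results of these data known.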

Additional observations from a re-analysis of the deposited data

How the results depend on the processing

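No paired analysis was possible because the libraries of the table carry sequencing index names and no replicate numbers, so a replicate block could not be fitted. Low values are a limit, since most segments detected in a cell had a corrected value of 1. The number of libraries is another: 3 per genotype cannot give an exact permutation p below 0.1 (0.2 with 1 library left out). With a value of at least 2 in place of 1, the difference in the effective number of Trbv segments became 0.139, that in the share of Trbv-positive cells with 2 or more segments 0.300 points, that in cells with any Trav segment 0.115 points, and the clusters without overlap fell to 1. The Trbv share with 2 or more segments also changed sign with families in place of segments (0.0193 points) and near the median depth (0.0214 points), and ranged from -0.587 to 0.282 points when 1 library was left out (0.140 without A, 0.282 without E). So did the effective number of Trav segments, which ranged from -2.46 (without F) through -2.12 (without B) to 3.11 when 1 library was left out. Of the 12 most frequent Trbv segments, the 12 most frequent Trav segments and Trav1, 5 did not overlap in use between genotypes. The number was 6 to 10 when 1 library was left out (10 without B or D, 8 without E or F), where fewer samples make overlap less likely. No share over all genes was made for this measure. If genotype made no difference, a fraction of up to 0.1 of segments would lack overlap, or 0.2 with 1 library left out, so these counts are description only. Members called by limma numbered 4 without a filter on low values (beside 15.7% of all genes), 3 without a filter and with a pseudocount of 0.1 ppm (17.2%), and 2 by log odds of cell shares (19.1%), the last 2 settings chosen after the data were seen. With 1 library left out the ppm fit called 0 to 1 members (Trbv2 without library E, adjusted p = 0.0214, beside 37.5% of all genes; 9.47% to 21.3% without any other library) and the log odds fit 0 to 5 (5 without library E, beside 33.9%; 9.44% to 15.9% without any other library), or 1 near the median depth (18.8%). The cause was not tested. Of the 4 members called without a filter, Trbv16 lost its call with a pseudocount of 0.1 ppm (adjusted p = 0.0533, limma). Losses of a call by Trbv26, Trbv12-1, Trac and Cd4 are given above with each gene. In the ppm fit Trbv2 gained a call without library E, Trbc2 without library D, and Trdc without library F, with a pseudocount of 0.1 ppm (adjusted p = 0.0494, limma), after scaling by median of ratios (0.0412) and after TMM (0.0458). A mean of at least 5 ppm left no member to test.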
